A study of Mus musculus with 6 samples.

Results

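The interferon-inducible GTPases of the immunity-related (IRG) and guanylate-binding (GBP) families were followed through RNA-seq of small intestinal epithelium from mice kept under 3 microbial and dietary conditions. The set was a list of 10 genes found by symbol among the 51912 genes of the deposited tables: the IRG genes Irgm1, Irgm2, Igtp, Iigp1, Tgtp1 and Tgtp2 and the GBP genes Gbp2, Gbp3, Gbp6 and Gbp7. All 10 were present in the tables, and 9 had enough counts to be tested, since Iigp1 fell below the filter on low counts. The mice were of the C57BL/6 strain and carried no further allele or treatment in the labels. The specific pathogen free group (SPF) was free only of particular pathogens, the germ-free group (GF) lived without a microbiota, and the antigen-free group (AF) met foreign antigens neither from a microbiota nor from food. Each group had 2 libraries from sorted cells, called here by their label numbers: replicates 3 and 4 for SPF, 1 and 3 for GF, and 2 and 3 for AF. Ages, sexes and diets were not given in the sources used here. The labels do not state that each sample came from a different mouse, so the p-values cover the spread between samples only, which may be technical.

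Interferon-gamma, made mostly by T and NK cells, binds a receptor of 2 chains, Ifngr1 and Ifngr2, and induces genes whose promoters hold gamma-activated sites (GAS). Among them is Irf1, which in turn binds interferon-stimulated response elements (ISRE). Type I and III interferons act on ISREs as well, so many GTPase genes answer to more than 1 interferon. In cells infected by vacuolar parasites and bacteria, effector IRG proteins and GBPs gather on the membrane around the microbe and help to break it, while the 3 Irgm proteins sit on the cell's own membranes and hold the effectors inactive there. GBPs also assemble on cytosolic Gram-negative bacteria and promote sensing of their lipopolysaccharide by caspase-11, the product of Casp4. Intestinal epithelium lies close to intraepithelial lymphocytes, a source of interferon-gamma.

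Promoter sequence was the first feature the genes shared. Windows from 250 bases before to 50 bases after the RefSeq (GRCm38.p6) transcript start were searched for 8 of the 10 genes. Gbp6 and Iigp1 were not searched. An ISRE, searched as GAAANNGAAA on both strands, was found in each of the 8, and in 3.44% of all 32851 windows. Gbp3 had a second window, at another start, with no match. A GAS, searched as TTCNNNGAA, a palindrome, was found in 5 of the 8 (Igtp, Irgm2, Tgtp1, Tgtp2 and Gbp7) and in 8.3% of all windows. These matches describe letters and show neither binding nor use of a site. The stretches that hold them are shown so that the shared arrangement can be read, 5′ to 3′ on the strand of the gene, with GAS and ISRE matches in capitals. 4 are the 120 bases that end at the transcript start, and 4 are 30 bases around the matches. They lie on GRCm38.p6 at chr11:58199436-58199555 (Igtp, plus strand), chr11:58214857-58214976 (Irgm2, plus), chr11:49064213-49064332 (Tgtp2, minus), chr11:48992310-48992339 (Tgtp1, minus), chr11:48871428-48871457 (Irgm1, minus), chr3:142530216-142530335 (Gbp7, plus), chr3:142559992-142560021 (Gbp3, plus) and chr3:142620594-142620623 (Gbp2, plus).
Igtp: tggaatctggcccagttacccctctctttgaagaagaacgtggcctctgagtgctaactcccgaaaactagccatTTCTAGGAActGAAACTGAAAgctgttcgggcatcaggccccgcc
Irgm2: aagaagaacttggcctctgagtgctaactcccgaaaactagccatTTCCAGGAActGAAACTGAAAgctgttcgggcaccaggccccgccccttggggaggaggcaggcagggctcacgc
Tgtp2: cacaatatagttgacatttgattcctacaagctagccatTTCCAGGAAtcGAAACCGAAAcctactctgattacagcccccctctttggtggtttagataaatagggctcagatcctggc
Tgtp1: gccatTTCCAGGAAtcGAAACTGAAAccta
Irgm1: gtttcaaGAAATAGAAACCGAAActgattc
Gbp7: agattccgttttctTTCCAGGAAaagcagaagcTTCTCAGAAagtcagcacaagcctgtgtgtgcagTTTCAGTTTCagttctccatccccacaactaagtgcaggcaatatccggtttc
Gbp3: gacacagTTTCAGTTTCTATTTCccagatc
Gbp2: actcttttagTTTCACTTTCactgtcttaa

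In Igtp, Irgm2, Tgtp1 and Tgtp2 the GAS was followed after 2 bases by the ISRE on the same strand, which gives the joined pattern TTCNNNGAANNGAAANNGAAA. This pattern was chosen after the sequences had been seen, so its count is a description. It occurred in 5 of the 32851 windows (0.0152%), and the remaining window belonged to Gm12185, a predicted gene listed with the IRG family. Over 61 bases that end with the pattern, the sequences were identical at 59 positions between Igtp and Irgm2, and at 46 positions between Tgtp1 and Tgtp2. Tgtp2 was closer to Gm12185, at 55 identical positions, and Tgtp1 and Gm12185 shared 44. In Igtp and Tgtp2, the joined pattern began 45 and 81 bases before the start. The ISREs of Irgm1 and Gbp3 were runs of overlapping matches with no GAS in the window, and the ISRE matches of Gbp2, Gbp3 and Gbp7 read on the strand opposite to the gene.

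**Figure D1:**
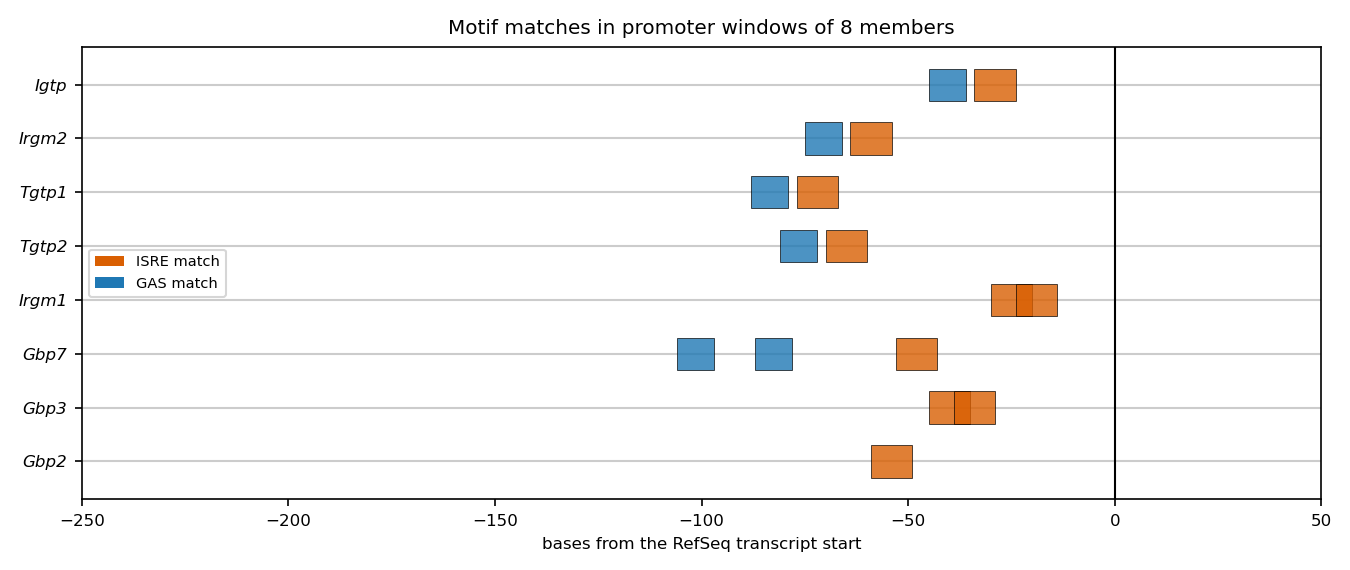
Positions of motif matches in the promoter windows of 8 genes; the x axis gives bases from the RefSeq transcript start and each row is 1 gene. ISRE matches are orange and GAS matches blue; in the upper 4 rows a GAS lies directly before an ISRE, and in all 8 rows the matches lie between 106 and 15 bases before the start.

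The libraries held 16109488 to 19417054 expected counts, so 1 count was worth 0.0365 to 0.0785 CPM (counts scaled to a library's total after trimmed-mean, TMM, normalisation), and 3 counts, the floor for a gene at 0, were worth 0.109 to 0.236 CPM. All 11 epithelial markers, among them Epcam, Vil1 and Cdx2, were present in every library, with a summed level of 9899 to 11937 CPM. Lymphocyte RNA was present too: the 25 markers of intraepithelial lymphocytes, T and NK cells summed to 263 CPM for SPF replicate 3, 101 CPM for SPF replicate 4, 45.3 CPM for GF replicate 1, 428 CPM for GF replicate 3, and 26 and 18.1 CPM for the 2 AF libraries. SPF replicate 4 stood apart in its epithelial cell types, with the lowest sums of Paneth (45.7 CPM against 1021 to 5891 CPM in the other libraries), goblet (2805 against 11908 to 29154 CPM), crypt stem (107 against 213 to 536 CPM) and tuft and enteroendocrine cell markers (255 against 826 to 2622 CPM) and the highest sum of enterocyte markers (62818 against 21507 to 34543 CPM). It also had the highest summed CPM of the GTPase genes, and the part of cell type makeup in their levels was not tested. Y-linked genes were at 0 in both SPF libraries and Xist was high there, so a difference of SPF from GF or AF by sex cannot be told apart from a difference by group. The tables of each group also carry a date-like mark of their own. In such bulk samples a lower share of a cell type and less RNA per cell cannot be told apart.

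Summed over the 10 GTPase genes, transcripts amounted to 213 CPM for SPF replicate 3, 273 CPM for SPF replicate 4, 52.7 CPM for GF replicate 1, 135 CPM for GF replicate 3, and 63.4 and 64.5 CPM for the 2 AF libraries. Both SPF libraries were above all 4 others, the AF libraries lay close together, and the GF libraries differed 2.56-fold. As TPM, RSEM's length-scaled unit, the same sum was 133 and 108 for SPF replicates 3 and 4, 36.9 and 53.1 for GF replicates 1 and 3, and 20.5 and 28.4 for AF replicates 2 and 3. SPF was again above the others, but the GF libraries differed only 1.44-fold and both AF libraries lay below both GF libraries. The TMM factors ran from 0.791 (AF replicate 2) to 1.41 (GF replicate 1), so differences between single libraries and between AF and GF depend on the scale. Mitochondrial RNA made up 18.1% of SPF replicate 3 and 27.2% of SPF replicate 4. It made up 17.9% and 32.1% of GF replicates 1 and 3, and 35.3% and 28.7% of AF replicates 2 and 3. Its part in the scaling was not tested. With limma on log2(TPM + 1), the AF versus GF median of all genes was itself -0.36, beside -0.52 for the 8 GTPase genes it could test. Among single genes, both SPF libraries were above all 4 others on the CPM scale for 7 of the 9 tested: Irgm1, Irgm2, Igtp, Gbp3, Gbp6, Gbp7 and Tgtp2. Across all 13644 tested genes this held for 11.8%. On TPM it held for 6 of the 9, without Tgtp2, beside 10.1% of all genes. The exceptions were Gbp2 and Tgtp1, in which SPF replicate 4 was low.

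**Figure D2:**
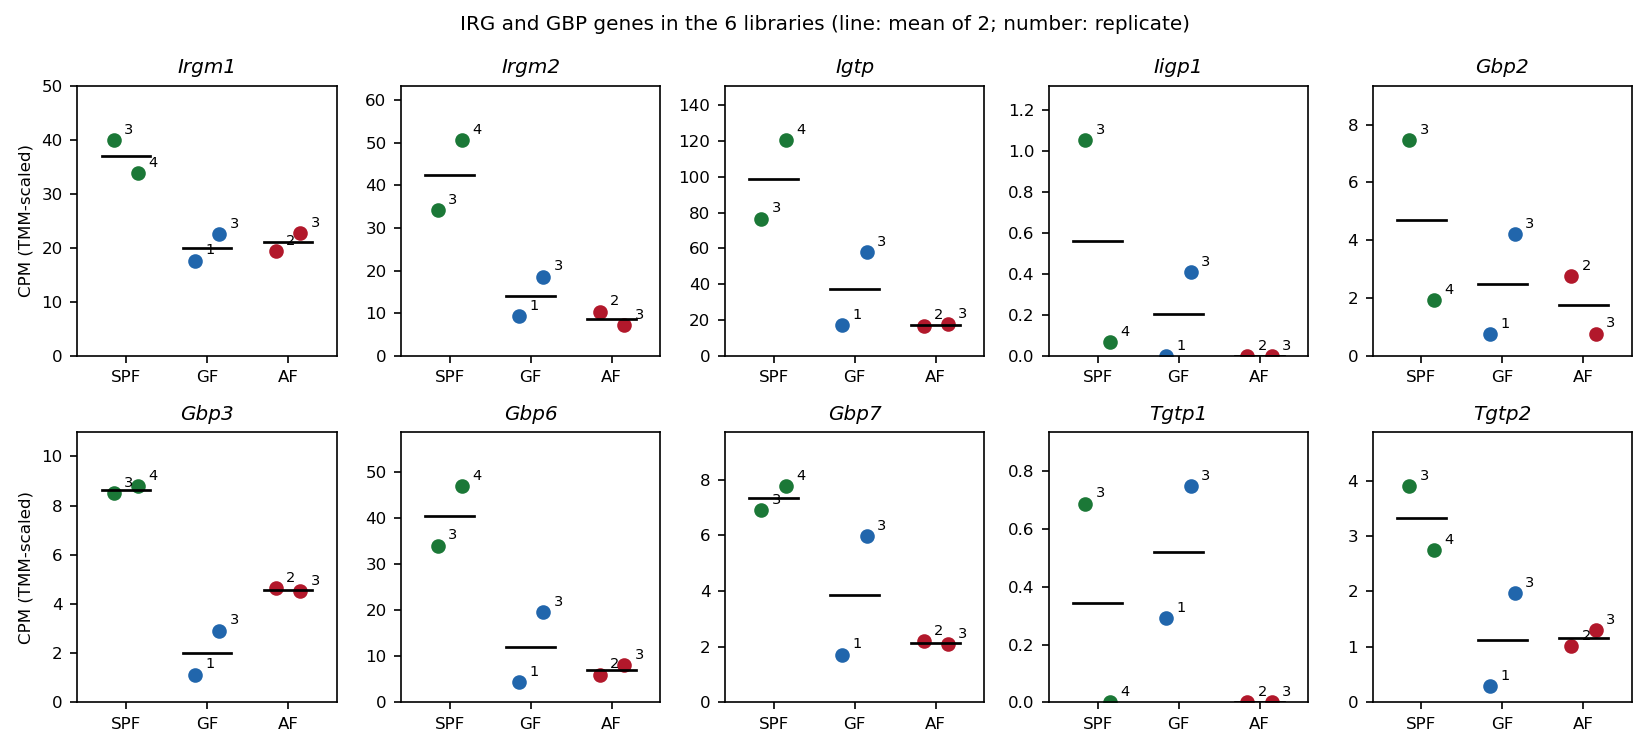
Normalised level (CPM, TMM-scaled, y axis from 0 with a separate range per panel) of each of the 10 genes in the SPF, GF and AF libraries; points are libraries with their label number and lines are the means of 2. For Igtp the SPF points stand at 76.7 and 121 CPM, the GF points at 17.1 and 58.0 CPM and the AF points at 16.9 and 17.8 CPM.

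The 3 Irgm regulators made up most of the transcripts (all gene positions are on GRCm38). Igtp, also called Irgm3 (ENSMUSG00000078853, chromosome 11, 58199556 to 58207591), measured 76.7 and 121 CPM in the SPF libraries, 17.1 and 58.0 CPM in the GF libraries, and 16.9 and 17.8 CPM in the AF libraries. GF replicate 1 was at the AF level in CPM, while GF replicate 3 lay between AF and SPF. In TPM both GF libraries, at 14.3 and 27.0, were above the AF libraries, at 6.64 and 9.62. Irgm2 (ENSMUSG00000069874, chromosome 11, 58199618 to 58222782) measured 34.2 and 50.6 CPM in the SPF libraries, 9.30 and 18.6 CPM in the GF libraries, and 10.4 and 7.13 CPM in the AF libraries. Its SPF values did not overlap with those of either other group, and the GF and AF ranges overlapped in CPM but not in TPM. The gene models of Igtp and Irgm2 overlap by 7974 bases on the same strand, though the posterior standard deviation with which RSEM split their reads was at most 0.494% and 0.865% of the count. Irgm1 (ENSMUSG00000046879, chromosome 11, 48861968 to 48871683), whose loss in mice is known to impair resistance to many intracellular microbes, measured 40.03 and 34.0 CPM in the SPF libraries, 17.6 and 22.5 CPM in the GF libraries, and 19.5 and 22.7 CPM in the AF libraries. Its GF and AF values overlapped. In CPM it was 1.28-fold higher in GF replicate 3 than in GF replicate 1, against 3.39-fold for Igtp, whereas in TPM it was 1.41-fold higher in GF replicate 1, against 1.89-fold higher in GF replicate 3 for Igtp.

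The effector IRG genes were low. Tgtp2 (ENSMUSG00000078921, chromosome 11, 49057194 to 49064206), which together with Tgtp1 encodes the effector Irgb6, measured 3.89 and 2.74 CPM in the SPF libraries, 0.292 and 1.97 CPM in the GF libraries, and 1.02 and 1.31 CPM in the AF libraries. In CPM GF replicate 1 was lowest and the AF values lay between those of the GF libraries, while in TPM both AF libraries were below both GF libraries. Tgtp1 (ENSMUSG00000078922, chromosome 11, 48985327 to 48994172) measured 0.687 and 0 CPM in the SPF libraries, 0.292 and 0.746 CPM in the GF libraries, and 0 CPM, from rounded counts, in both AF libraries. Taking 3 counts per group as the limit of detection, Tgtp1 was at least 4.06-fold lower in AF than in SPF and at least 4.44-fold lower than in GF. The bound against SPF rests on SPF replicate 3, since SPF replicate 4 had 0 counts, as AF did. These near-identical genes are uncertain one by one, since RSEM's posterior standard deviation reached 31.8% of the count for Tgtp1 and 13.2% for Tgtp2. Their sum, which a split of reads between these 2 genes cannot change, was 4.58 and 2.74 CPM in the SPF libraries, 0.583 and 2.71 CPM in the GF libraries, and 1.02 and 1.31 CPM in the AF libraries, so that GF replicate 3 reached the lower SPF library. The gene model of Gm12185 (chromosome 11, 48904656 to 48992226) overlaps that of Tgtp1 on the same strand, and a split of reads with it could change the sum. Iigp1, which encodes the effector Irga6 (ENSMUSG00000054072, chromosome 18, 60376027 to 60392634), had 23 and 1 counts in SPF, 0 and 6 counts in GF and 0 counts in AF. The same limit puts it at least 6.49-fold lower in AF than in SPF, a value that rests on SPF replicate 3.

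Of the GBP genes, Gbp6 (ENSMUSG00000104713, chromosome 5, 105270702 to 105293698) had the highest level, at 34.0 and 46.8 CPM in the SPF libraries, 4.45 and 19.5 CPM in the GF libraries, and 6.05 and 8.14 CPM in the AF libraries. The order of its libraries was that of Igtp except for the lowest 2. Gbp7 (ENSMUSG00000040253, chromosome 3, 142530342 to 142550149), a GBP needed in mice for control of intracellular bacteria, measured 6.92 and 7.75 CPM in the SPF libraries, 1.71 and 5.97 CPM in the GF libraries, and 2.20 and 2.08 CPM in the AF libraries. Here GF replicate 3 came close to SPF, and GF replicate 1 to AF. Gbp3 (ENSMUSG00000028268, chromosome 3, 142560026 to 142573209) measured 8.52 and 8.78 CPM in the SPF libraries, 1.13 and 2.92 CPM in the GF libraries, and 4.63 and 4.52 CPM in the AF libraries. In CPM it was the only 1 of the 9 tested genes in which both AF libraries lay above both GF libraries, and in TPM these values overlapped. Gbp2 (ENSMUSG00000028270, chromosome 3, 142620602 to 142638008), which is recruited to parasite and bacterial compartments, measured 7.46 and 1.92 CPM in the SPF libraries, 0.766 and 4.21 CPM in the GF libraries, and 2.75 and 0.773 CPM in the AF libraries. Its libraries differed widely in each group, least in AF, where replicate 3 was at 0.281 times the level of replicate 2, and all 3 groups overlapped. RSEM's posterior standard deviation was at most 4.28% of the count for Gbp6, 4.88% for Gbp7, 0.392% for Gbp3 and 0% for Gbp2.

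Levels of different genes were compared per length, as TPM. In SPF, Igtp stood first at 57.9 ± 1.2 TPM (mean ± SD, n = 2 libraries), followed by Irgm1 at 21.5 ± 9.38 TPM, Gbp6 at 14.6 ± 1.07 TPM and Irgm2 at 13.8 ± 0.877 TPM. Igtp stood apart from Irgm1 in both libraries, while Irgm1 overlapped with Gbp6, and Gbp6 with Irgm2. Gbp3 came next at 5.22 ± 0.382 TPM, and Gbp2, Gbp7 and Tgtp2, at 2.58 ± 2.64, 2.46 ± 0.509 and 1.78 ± 1.24 TPM, overlapped with each other. In AF, Irgm1 at 9.13 ± 2.75 TPM and Igtp at 8.13 ± 2.11 TPM stood at the top and overlapped, with Irgm2, Gbp6 and Gbp3 at 2.17 ± 0.134, 2.07 ± 0.665 and 1.54 ± 0.283 TPM. Igtp supplied 44.1% and 53% of the 10 genes' summed TPM in the SPF libraries, and Irgm1 21.2% and 13.9%. In AF, Igtp supplied 32.4% and 33.8% and Irgm1 35% and 38.9%. GF replicate 1 resembled AF in this respect, with 38.7% Igtp and 36.3% Irgm1, and GF replicate 3 resembled SPF, with 50.8% and 17.9%.

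**Figure D3:**
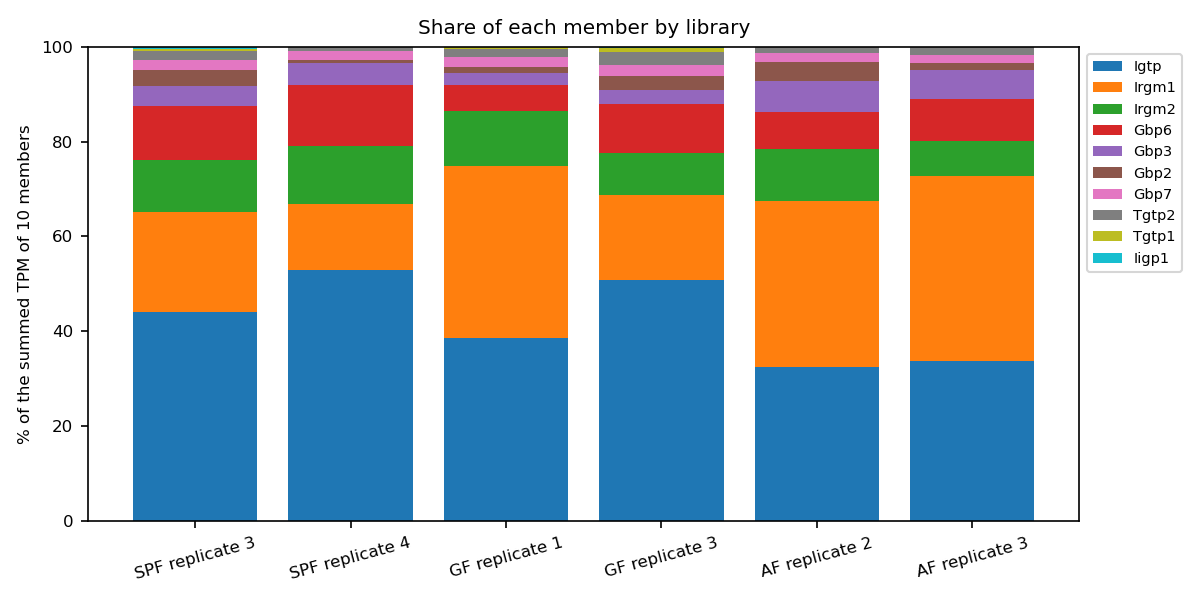
Share of each gene in the summed TPM of the 10 genes, in percent, for each library. The Igtp segment runs from 32.4% in AF replicate 2 to 53% in SPF replicate 4, and the Irgm1 segment from 13.9% in SPF replicate 4 to 38.9% in AF replicate 3.

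GF versus SPF compared mice without and with a microbiota. By fitted log2 fold change, 8 of the 9 tested GTPase genes were below 0 in GF, beside 48.1% of all tested genes, and the median over the 9 was -1.40 beside 0.02 over all genes. The values were -2.12 for Gbp3 (SE 0.50), -1.76 for Gbp6 (SE 0.65), -1.61 for Irgm2 (SE 0.41), -1.60 for Tgtp2 (SE 0.88) and -1.40 for Igtp (SE 0.56). For Irgm1, the value was -0.88 with the smallest error of the set (SE 0.22), and for Gbp2 and Gbp7 it was -0.95 each (SE 1.06 and 0.60). Both GF libraries were below both SPF libraries in 7 genes, beside 17.1% of all genes, and on TPM in 6, beside 11.7%. With edgeR's quasi-likelihood test, 0 of the 9 passed an adjusted p below 0.05 (adjusted p from 0.738 to 0.946), where 0.0147% of all genes did. At an unadjusted p below 0.05, 5 were lower, beside 3.51% of all genes: Irgm1, Irgm2, Igtp, Gbp3 and Gbp6. Gbp3 was called lower with DESeq2 and with edgeR's likelihood ratio test (adjusted p = 0.0379 and 0.0488), beside 0.293% and 0.322% of all genes called lower by each, and limma on log2(TPM + 1) called 0 of 8. With no low-count filter, edgeR's quasi-likelihood test called Irgm2, Igtp, Gbp3 and Gbp6, beside 2.12% of all genes.

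The size of this difference followed the GF library used. Without GF replicate 1 the median of the GTPase genes was -0.74 and without GF replicate 3 it was -2.57, and GF replicate 3 was also the library with the most lymphocyte RNA, 9.46 times that of GF replicate 1. Between these 2 libraries the values in CPM were higher in GF replicate 3 by 1.28-fold for Irgm1, 2.0-fold for Irgm2, 2.58-fold for Gbp3, 3.39-fold for Igtp, 3.48-fold for Gbp7, 4.39-fold for Gbp6, 5.49-fold for Gbp2 and 6.75-fold for Tgtp2. In TPM the lymphocyte sum was 5.43-fold higher in GF replicate 3, and the tested GTPase genes were higher there by 1.12-fold (Irgm2) to 3.16-fold (Gbp2), except Irgm1, which was lower. In SPF, the lymphocyte sum was lower in replicate 4 than in replicate 3, at 0.385 times its level. In CPM Gbp2 was 0.257 times as high there and Tgtp2 0.705 times, while Igtp was 1.57 times, Irgm2 1.48 times and Gbp6 1.38 times as high. The direction depends on the scale: in TPM, Igtp was 0.971 times, Irgm2 0.914 times and Gbp6 0.902 times as high in SPF replicate 4, beside 0.243 times for the lymphocyte sum. SPF replicate 4, with 101 CPM of lymphocyte markers, had a GTPase sum of 273 CPM, and GF replicate 3, with 428 CPM of lymphocyte markers, had a sum of 135 CPM. The part of lymphocyte RNA in the levels of single genes was not tested.

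AF versus GF compared mice without and with food antigens, both without a microbiota. The fitted log2 fold change was below 0 in 6 of the 9 genes, beside 52.9% of all genes, with a median of -0.67 beside -0.02 over all genes. Igtp gave -1.11 (SE 0.56), Gbp7 -0.83 (SE 0.61), Gbp6 -0.74 (SE 0.65), Irgm2 -0.67 (SE 0.41) and Gbp2 -0.49 (SE 1.08). Irgm1 and Tgtp2 stood at 0.07 (SE 0.22) and 0.10 (SE 0.89), and Gbp3 at 1.20 (SE 0.50). In CPM, AF lay wholly below GF for 1 gene, Tgtp1, beside 17.8% of all genes, and wholly above for 1, Gbp3, beside 15.8%. These counts depend on the scale: in TPM, AF lay wholly below GF for 5 genes (Igtp, Irgm2, Gbp7, Tgtp1 and Tgtp2), beside 27.9% of all genes, and wholly above for 0, beside 4.12%. edgeR's quasi-likelihood test called 0 of the 9 (all adjusted p at 1.00), beside 0.0147% of all genes. DESeq2 and the likelihood ratio test called 0 as well, beside 0.414% and 0.388% of all genes, and so did limma on log2(TPM + 1). At an unadjusted p below 0.05 there were 0, beside 2.07% of all genes lower and 1.52% higher. The direction rested on GF replicate 3: the median, over the 10 genes that these fits tested, was -1.36 when GF replicate 1 was left out and 0.29 when GF replicate 3 was, where Igtp stood at 0.02, Gbp7 at 0.32 and Gbp6 at 0.68. Lymphocyte markers were lower in AF than in both GF libraries in sum.

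AF versus SPF took both differences together, and its values are built on the same libraries as the other comparisons. All 9 tested genes had a log2 fold change below 0 (49.1% of all genes did), with a median of -1.77 beside 0.01 over all genes. The median was the same with Tgtp1, at 0 counts in AF, set to its lower bound, and so was that of AF versus GF. Igtp was at -2.50 (SE 0.59), from a mean of 98.6 ± 31 to 17.4 ± 0.665 CPM, which is 5.68-fold. Gbp6 was at -2.50 (SE 0.67), a 5.69-fold difference, and Irgm2 at -2.28 (SE 0.42), a 4.85-fold difference. Gbp7 followed at -1.77 (SE 0.62), Tgtp2 at -1.50 (SE 0.88), Gbp2 at -1.44 (SE 1.08), Gbp3 at -0.92 (SE 0.48) and Irgm1 at -0.81 (SE 0.22). Both AF libraries were below both SPF libraries in 7 of the 9, beside 22.6% of all genes, and in TPM in the same 7, beside 35.9%. The quasi-likelihood test of edgeR called 0 of the 9 (adjusted p from 0.304 for Irgm2 to 0.658 for Gbp2), where 0.044% of all genes passed. At an unadjusted p below 0.05, 5 genes were lower, beside 6.52% of all genes: Irgm1, Irgm2, Igtp, Gbp6 and Gbp7.

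Irgm2, Igtp and Gbp6 were called lower in AF than in SPF by DESeq2 (adjusted p = 7.1e-04, 0.00279 and 0.0139) and by edgeR's likelihood ratio test (adjusted p = 4.66e-04, 0.00529 and 0.0233). Each of these tests called 1.19% of all genes lower, and limma on log2(TPM + 1) called 0 of the 8 GTPase genes it could test. With no low-count filter, the quasi-likelihood test called these 3 and Gbp7, beside 3.53% of all genes, and in AF versus GF it then called Igtp, beside 1.16%. Without SPF replicate 3, edgeR's quasi-likelihood test called Irgm2 as well (log2 fold change -2.54, adjusted p = 0.0371), together with 1.57% of all genes called lower in that fit. SPF is then a single library, assumed to vary like the other groups, and the fit called 631 genes in either direction against 6 with all libraries. AF libraries were also the lowest in lymphocyte markers, of which 7 and 6 of 25 were at 0, and Y-linked genes were present in AF and at 0 in SPF. Enterocyte markers had a median of -0.95 in AF versus SPF, with 11 of 12 below 0, and DESeq2 called Anpep, Fabp1 and Mttp lower. The size of this median followed the SPF library used. Leaving out SPF replicate 4 gave -0.34 with 7 of 12 below 0, and leaving out SPF replicate 3 gave -1.37 with 12 of 12. Tuft and enteroendocrine cell markers had a median of 2.05, with 1 of 9 below 0, and DESeq2 called Alox5ap, Dclk1 and Trpm5 higher. edgeR's quasi-likelihood test called 0 of either list. At an unadjusted p below 0.05, 4 of the 12 enterocyte markers were lower, beside 6.52% of all genes. By the same rule 5 of the 9 tuft and enteroendocrine markers were higher, beside 651 of all 13644 genes. The part of these in the differences was not tested.

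**Figure D4:**
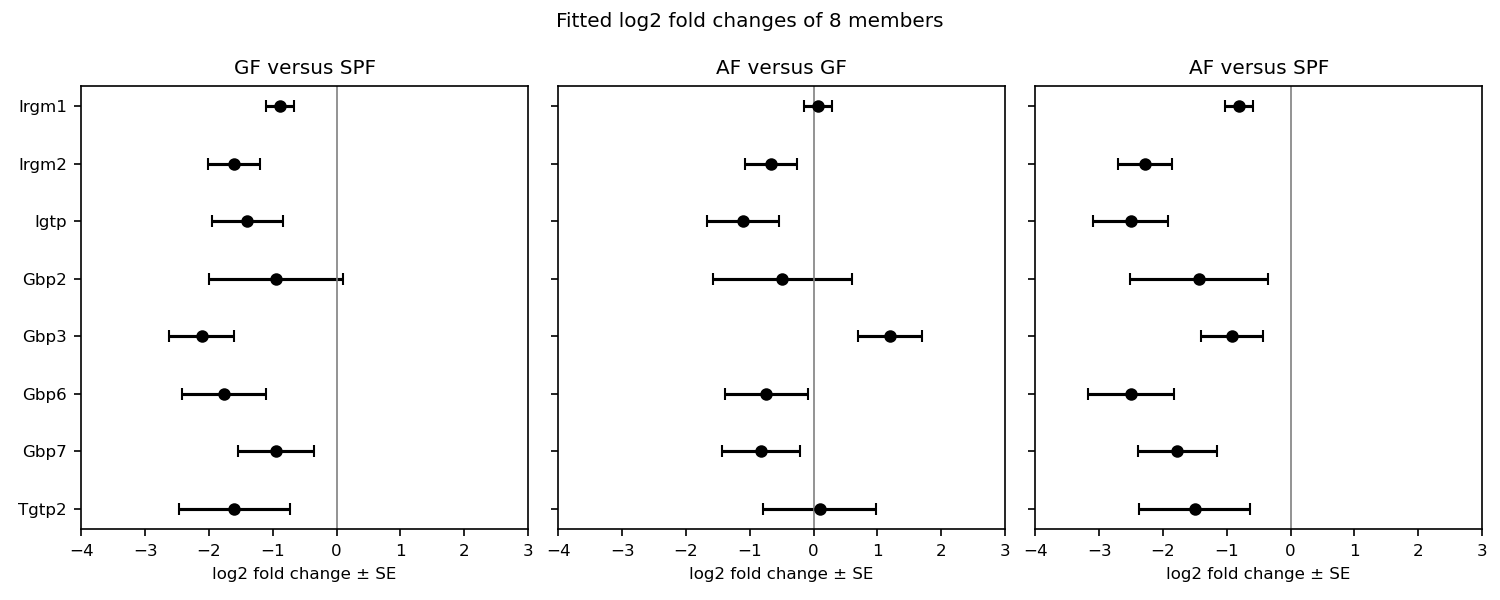
Fitted log2 fold changes (x axis) with their standard errors (bars) for 8 of the 9 tested genes in the 3 comparisons; Tgtp1, with counts near 0, is left out. All 8 points lie left of 0 in GF versus SPF (-2.12 to -0.88) and AF versus SPF (-2.50 to -0.81), and they lie on both sides of 0 in AF versus GF (-1.11 to 1.20).

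The genes upstream were measured in the same libraries. Ifng itself had 1 count in SPF replicate 3 and 4 counts in GF replicate 3 and 0 in the other libraries, and could not be tested. Ifngr1 measured 89.4 ± 19.2, 88.3 ± 10.9 and 86.2 ± 3.07 CPM for SPF, GF and AF, and Jak1 74.4 ± 3.64, 66.9 ± 5.54 and 67.3 ± 2.04 CPM. Irf1 measured 182 and 261 CPM in the SPF libraries, 105 and 160 CPM in the GF libraries and 154 and 112 CPM in the AF libraries. Irf8, an interferon-inducible factor, gave the smallest p of this list, at 94 ± 15.6 CPM in the SPF libraries and 37.5 ± 8.44 CPM in the AF libraries (log2 fold change -1.33, SE 0.30). Of the 17 genes tested in the list of ligand, receptor and signalling genes, 16 were below 0 in GF versus SPF (median -0.51). In AF versus GF 9 were below 0 (median -0.03), and in AF versus SPF 16 (median -0.31). Over all genes, 48.1%, 52.9% and 49.1% were below 0 in this order. Without SPF replicate 4 the median was -0.19 in GF versus SPF (13 of 17 below 0) and -0.12 in AF versus SPF (11 of 17). Without SPF replicate 3 these medians were -0.71 (15 of 17) and -0.68 (16 of 17). In AF versus GF the median was 0.15 without GF replicate 3. edgeR's quasi-likelihood test called 0 in any comparison, and at an unadjusted p below 0.05, 2 were lower in GF versus SPF, 0 in AF versus GF and 5 in AF versus SPF, beside 3.51%, 2.07% and 6.52% of all genes. DESeq2 and the likelihood ratio test called only Irf8, in AF versus SPF.

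The 34 other interferon-gamma targets tested, such as antigen-processing genes, had medians of -0.67, -0.41 and -0.94 in the same order of comparisons, against -1.40, -0.67 and -1.77 for the GTPase genes. Of the 34, 28, 28 and 31 were below 0, beside 48.1%, 52.9% and 49.1% of all genes. In the same order, 6, 5 and 15 were lower at an unadjusted p below 0.05 by edgeR, beside 3.51%, 2.07% and 6.52%. In AF versus GF 1 was higher by this rule, beside 1.52%. edgeR's quasi-likelihood test called 1, Nos2, the inducible nitric oxide synthase, in AF versus SPF (42 and 24.6 CPM in the SPF libraries, 0.314 and 0.178 CPM in the AF libraries; log2 fold change -7.08, SE 0.51, adjusted p = 0.0222). In AF versus SPF DESeq2 called 5 lower (Nos2, Ciita, Ifi47, Parp9 and Ubd), and so did the likelihood ratio test, with Psmb9 in place of Parp9. Each of these tests called 1.19% of all genes lower there, and edgeR's quasi-likelihood test called 0.044%. DESeq2 and the likelihood ratio test called Nos2 lower in GF versus SPF and in AF versus GF, where DESeq2 also called Ciita. Over all genes, these 2 tests called 0.293% and 0.322% lower in GF versus SPF. In AF versus GF they called 0.414% and 0.388% in either direction. The median in GF versus SPF was -0.28 without GF replicate 1, -1.18 without GF replicate 3 and -0.32 without SPF replicate 4. The median in AF versus GF was 0.04 without GF replicate 3, with 16 of 34 below 0. Here too the sign of the AF versus GF median followed that library.

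Genes induced mainly by type I and III interferons had another pattern between GF and AF. All 30 tested were below 0 in GF versus SPF with a median of -1.31, beside 48.1% of all genes. In AF versus GF 4 of 30 were below 0, beside 52.9%, and the median was 0.52. In CPM, both GF libraries were below both SPF libraries in 27 of the 30, beside 17.1% of all genes. Both AF libraries were below both SPF libraries in 21, beside 22.6%. In TPM these counts were 28 and 28, beside 11.7% and 35.9%. Isg15, a ubiquitin-like modifier, measured 79.4 and 145 CPM in the SPF libraries, 18 and 45.5 CPM in the GF libraries, and 74.5 and 57.3 CPM in the AF libraries, so that both AF libraries lay above both GF libraries. Isg15 was chosen after its values were seen, since by the smallest p the genes to be named were Ifi44 and Trim30a. Ifi44 measured 14.6 and 12.3 CPM in the SPF libraries, 1.42 and 2.92 CPM in the GF libraries, and 2.67 and 3.39 CPM in the AF libraries. In CPM, both AF libraries exceeded both GF libraries in 18 of the 30, beside 15.8% of all genes, and in 1 of the 9 GTPase genes, Gbp3. In TPM this held for 14 of the 30, beside 4.12% of all genes, and for 0 of the 9. In the other direction, both AF libraries were below both GF libraries in 2 of the 30 in CPM, beside 17.8% of all genes. In TPM they were below in 6 of the 30, beside 27.9%. Leaving out GF replicate 1 gave a median of 0.22 in AF versus GF and leaving out GF replicate 3 gave 1.08, above 0 either way, and 0.27 with library totals alone, where the median of all genes was -0.38. With edgeR's quasi-likelihood test 0 of the 30 were called in any comparison. At an unadjusted p below 0.05, 26 were lower in GF versus SPF, beside 3.51% of all genes, 5 were higher in AF versus GF, beside 1.52%, and 11 were lower in AF versus SPF, beside 6.52%. DESeq2 and the likelihood ratio test each called 6 in GF versus SPF, 0 in AF versus GF and 4 in AF versus SPF, all lower, beside 0.293% and 0.322% of all genes in the first comparison and 1.19% by either test in the last. The difference between the lists was not tested.

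**Figure D5:**
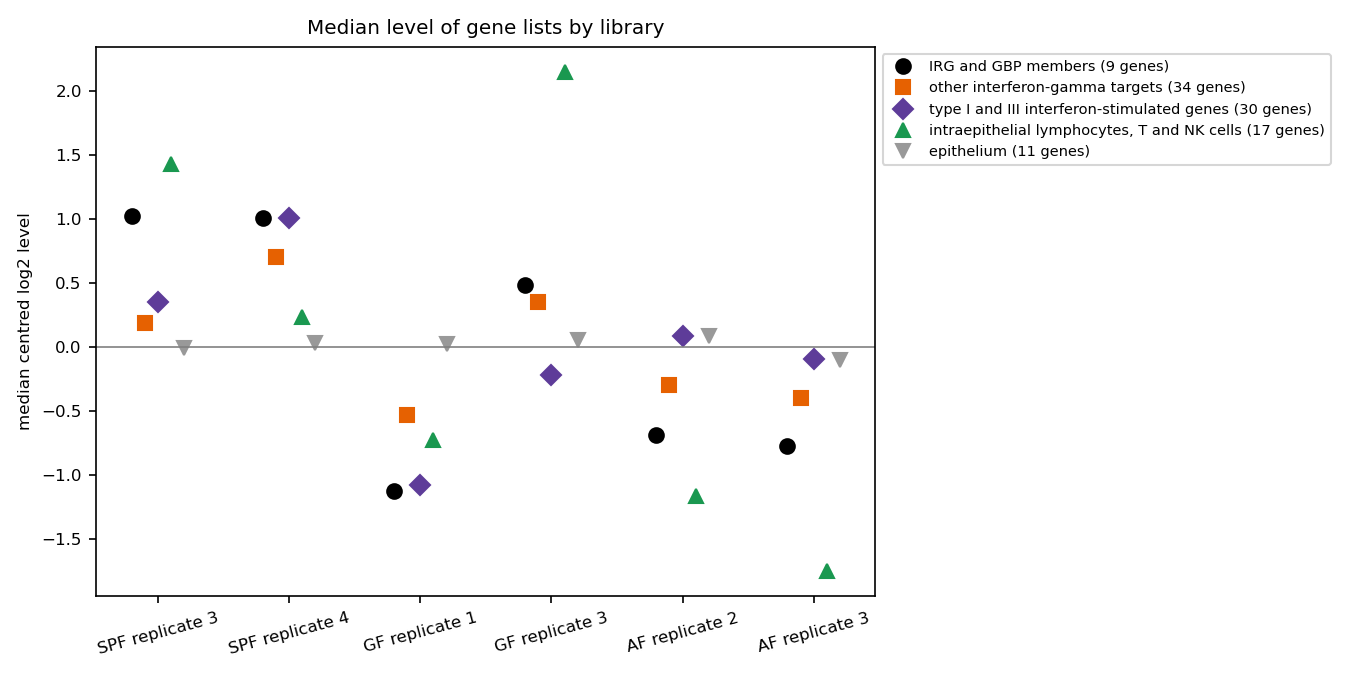
Median centred log2 level (log2 of CPM + 0.25, minus each gene's mean over the 6 libraries, y axis) of 5 gene lists in each library (x axis). The GTPase genes (black) stand at 1.03 and 1.01 in SPF, -1.12 and 0.49 in GF and -0.68 and -0.77 in AF, while the lymphocyte markers (green) are highest in GF replicate 3, at 2.15.

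Other genes of the 2 GTPase families, as listed here, were mostly absent or low. Ifi47, also an IRG gene, is not in this list, since it was listed with the other interferon-gamma targets. It measured 35.4 and 49.3 CPM in the SPF libraries. DESeq2 and the likelihood ratio test called it lower in AF than in SPF, beside 1.19% of all genes by each. Of 18 listed, 9 passed the filter, and their medians were -0.20 in GF versus SPF, -0.91 in AF versus GF and -1.41 in AF versus SPF. Single libraries turned 2 of these: leaving out SPF replicate 3 gave 0.26 in GF versus SPF, leaving out GF replicate 1 gave 0.49 and leaving out GF replicate 3 gave -1.91, and AF versus GF was 0.05 without GF replicate 3. AF versus SPF ran from -2.34 without AF replicate 2 to -0.67 without SPF replicate 3. edgeR's quasi-likelihood test, DESeq2 and the likelihood ratio test called 0 of the 9, and 1 gene, 9930111J21Rik1, was lower at an unadjusted p below 0.05, in AF versus SPF, beside 6.52% of all genes. Gbp8 measured 3.07 and 3.77 CPM in the SPF libraries, 1.06 and 4.82 CPM in the GF libraries, and 1.10 and 0.654 CPM in the AF libraries. In Gbp8 GF replicate 3 was the highest library, above both SPF libraries, unlike in Gbp6 and Gbp7. Of 18 tested inflammasome and cell death genes, edgeR's quasi-likelihood test called 0, with 4, 2 and 3 lower and 0, 2 and 0 higher at an unadjusted p below 0.05 in GF versus SPF, then AF versus GF, then AF versus SPF. In the same order, 3.51%, 2.07% and 6.52% of all genes were lower, and 437, 208 and 651 of all 13644 genes were higher. Il18, a cytokine that inflammasomes activate, measured 47.2 ± 4.32 CPM in SPF, 22.8 ± 3.17 CPM in GF and 42 ± 3.01 CPM in AF, and was called lower in GF than SPF by DESeq2 and edgeR's likelihood ratio test. Il1b, another cytokine of this list, was called lower in AF than SPF by the likelihood ratio test alone, at 1.05 and 1.99 CPM in the SPF libraries and 0 and 0.119 CPM in the AF libraries. Casp4, whose protease senses lipopolysaccharide, measured 23.4 and 16.3 CPM in the SPF libraries, 13.4 and 17.1 CPM in the GF libraries, and 9.03 and 9.15 CPM in the AF libraries (AF versus SPF log2 fold change -1.13, SE 0.27, adjusted p = 0.372). Among 20 tested autophagy and ubiquitin partners, the medians were -0.04, 0.10 and 0.07 in the same order of comparisons, and edgeR's quasi-likelihood test, DESeq2 and the likelihood ratio test called 0. At an unadjusted p below 0.05, 1, 0 and 2 of the 20 were lower and 0, 0 and 2 higher, beside the values over all genes given for the inflammasome list. Rnf213, a large ubiquitin ligase, measured 355 ± 68.7, 159 ± 53.2 and 154 ± 17.1 CPM for SPF, GF and AF.

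The genes whose levels over the 6 libraries were most like the mean of the 9 tested GTPase genes were sought among 8705 others with a mean of at least 5 CPM, by the root mean square difference of centred log2 levels. Ifi47 was closest, at 0.268. It encodes another IRG protein, Irgd, and measured 35.4 and 49.3 CPM in the SPF libraries, 9.15 and 29.4 CPM in the GF libraries, and 12 and 10.4 CPM in the AF libraries. Next came Nlrx1, a mitochondrial NOD-like receptor (0.269), Psmb9, an immunoproteasome subunit (0.291), Spats2l (0.296), Unc93b1, a chaperone of endosomal Toll-like receptors (0.311), Tap1, a peptide transporter subunit (0.314), Smox, a spermine oxidase (0.315), and Herc6 (0.333). Of the GTPase genes themselves, Gbp7 lay nearest to their mean at 0.179 and Tgtp2 at 0.344, while Gbp3 (0.624), Gbp2 (0.656) and Tgtp1 (0.924) were farthest.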

How the data were processed

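RNA-seq of sorted small intestinal epithelium was analysed in 6 libraries, 2 per group, grouped by the sample labels. Per the labels' protocols, RNA was purified on RNeasy columns and libraries were made with a TruSeq kit. The build (GRCm38/mm10), RSEM, STAR (2.5.2b) and edgeR (3.16.5) appear in the submitters' processing notes, listed here with no order or role. Strand setting and annotation release were not given in the sources used here. Per the file headers, the authors deposited RSEM expected counts per gene, not scaled between libraries, with posterior means and standard deviations. TPM values and effective lengths were deposited as well, and TPM is by definition scaled by effective length to a constant sum per library. Of 51912 gene IDs, 51633 matched a symbol in GENCODE M21.

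Expected counts were rounded (23.5% of those above 0 were not whole). filterByExpr left 13644 genes. Genes were tested with the quasi-likelihood F test of edgeR (TMM scaling, glmQLFit with legacy on, all 6 libraries in 1 fit, 3 residual degrees of freedom), with a call at a Benjamini-Hochberg adjusted p below 0.05 over all genes. SEs were taken as |log2 fold change| over √F. CPM use TMM-scaled totals. Versions were 4.0.16 (edgeR), 1.42.0 (DESeq2), 3.58.1 (limma) and 4.3.3 (R). On simulated counts for AF versus GF, 13284 genes were tested, and 199 of them had been changed by 2-, 4-, 8- or 16-fold. In that order of folds, 3, 22, 49 and 50 changed genes were called, and 6 unchanged genes were called too. All genes were simulated with the same spread, the common dispersion of these data (a biological coefficient of variation of 0.368). Spread that differs between genes was not simulated, so these calls do not give the power of the test on the real data. The 199 cover all folds together, and the number tested at each fold is not given here.

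The 10 genes and 18 further lists of 282 genes were chosen with earlier results of these data known. All 10 were named, with up to 4 called genes of each other list, otherwise the 2 with the smallest p, signalling genes in any case, and the 8 genes of most similar levels. A signalling gene is not reported here. Alternatives were DESeq2, the likelihood ratio test, median-of-ratios scaling, library totals alone, other low-count filters, limma on TPM, only the 2 groups compared, another threshold, near-identical genes summed, the 20 most abundant genes left out, and each library left out. Medians of the other lists by setting, and values on TPM and on library totals beside those on TMM-scaled totals, were added after the data were seen. Floors cover counting error only.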

Additional observations from a re-analysis of the deposited data

How the results depend on the processing

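Called GTPase genes were 0 in each comparison with edgeR's quasi-likelihood test. With DESeq2 and with the likelihood ratio test they were 1 in GF versus SPF and 3 in AF versus SPF each, and with no low-count filter they were 4, 1 (Igtp, AF versus GF) and 4, beside 484, 264 and 804 of 22801 genes (2.12%, 1.16% and 3.53%). Leaving out a library gave 0 to 1 (without SPF replicate 3, AF versus SPF) and 0 elsewhere. The count over all genes, given for GF versus SPF, then AF versus GF, then AF versus SPF, was 2, 2 and 6. It became 80, 51 and 269 with DESeq2, 97, 53 and 298 with the likelihood ratio test, 9, 14 and 13 with limma on log2(TPM + 0.1), 0, 8 and 2 with only the 2 groups compared, 5 and 8 (GF versus SPF, AF versus GF) with limma on log2(TPM + 1), and 0 and 4 with library totals alone. With a library left out, it ran from 0 to 387, from 0 to 9 and from 0 to 631, the highest in each case without SPF replicate 3. The cause of these differences was not tested.

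With a library left out, the median of the GTPase genes ran from -2.57 (without GF replicate 3) to -0.74 (without GF replicate 1) in GF versus SPF, and from -1.36 (without GF replicate 1) to 0.29 (without GF replicate 3) in AF versus GF, so the sign of the latter is not settled by these libraries. In AF versus SPF it ran from -2.39 (without AF replicate 2) to -1.23 (without SPF replicate 3), against -1.77. The median of -1.23 counted Tgtp1, at 0 counts in both groups of that fit, as a log2 fold change near 0. Library totals alone moved the median of all genes in AF versus GF to -0.38, and the GTPase median of -0.85 there is to be read against it. In the same fits for AF versus GF, Igtp ran from -1.74 to 0.0228, Gbp6 from -1.45 to 0.68, Gbp7 from -1.48 to 0.32, Irgm1 from -0.0915 to 0.26, Tgtp2 from -0.75 to 1.98 and Gbp2 from -1.66 to 1.18. For all but the last, the low end was without GF replicate 1 and the high end without GF replicate 3; for Gbp2 the low end was without AF replicate 2. Irgm1 and Tgtp2 also turned with library totals alone (-0.23 and -0.0024), limma on log2(TPM + 1) (-0.31 and -0.54) and limma on log2(TPM + 0.1) (-0.33 and -1.19), and Tgtp2 with near-identical genes summed (-0.46). In GF versus SPF, Gbp2 ran from -2.62 to 0.33 and Tgtp1 from -0.45 to 6.14, the high ends without SPF replicate 3. In AF versus SPF the tested GTPase genes kept their sign under the alternatives run, except that Tgtp1 had no value without SPF replicate 3, where both groups were at 0. No paired analysis was possible because the groups compared share only replicate number 3.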
